A study of Mus musculus with 15 samples.

Results

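Endothelial and pericyte genes of the brain were followed across 4 groups of mouse brain RNA-seq libraries. The set holds 34 genes, picked by symbol as genes of brain endothelium, the blood-brain barrier and pericytes, out of 26595 genes in the deposited table. All 34 were in the table and all passed the filter, a normalized count of 10 or more in 3 or more of the 15 libraries, as did 17030 genes in all. The groups were 3 libraries of striatum from KO mice (SLC1a4 -/-, lacking the neutral amino acid transporter ASCT1), 4 of striatum from WT mice, 4 of cerebral cortex from KO mice and 4 of cerebral cortex from WT mice. All mice were male C57Bl/6 animals aged 5 months, and the labels name no further allele or treatment. The genotype label names no cell type or promoter that would restrict the deletion. Whether replicates are separate animals is not said in the labels, so a p-value reflects the spread among these libraries alone.

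Brain capillaries are lined by endothelial cells that seal the vessel with tight junctions, restrict transcytosis and carry nutrients by dedicated transporters, while efflux pumps return drugs and toxins to the blood. Pericytes sit on the outside of the capillary within a shared basement membrane and are needed for this barrier to form and to persist. ASCT1 exchanges serine, alanine and other small neutral amino acids across the plasma membrane.

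The set was ordered by role: 7 junction and adhesion genes, 6 receptors, 2 secreted proteins, 4 transcription factors, 6 transporters, 3 other surface genes and 6 pericyte genes. The promoter windows shown belong to members that differed between striatum and cortex. Cd34 and Notch3 did so in both genotypes, and Itm2a, Emcn and Slco1a4 in WT mice. Egfl7, which also differed in WT mice, is not shown. Each window runs from 250 bases before to 50 bases after the start site, written 5′ to 3′ on the gene's strand, from RefSeq on GRCm38.p6. The windows lie at chr1:194938571-194938870 (plus strand) for Cd34, chr17:32166841-32167140 (minus strand) for Notch3 and chrX:107403311-107403610 (minus strand) for Itm2a. Those of Emcn and Slco1a4 lie at chr3:137340828-137341127 (plus strand) and chr6:141856171-141856470 (minus strand). Capitals mark matches, on either strand, to the Ets, Sox and Fox motifs listed after the sequences.
Cd34: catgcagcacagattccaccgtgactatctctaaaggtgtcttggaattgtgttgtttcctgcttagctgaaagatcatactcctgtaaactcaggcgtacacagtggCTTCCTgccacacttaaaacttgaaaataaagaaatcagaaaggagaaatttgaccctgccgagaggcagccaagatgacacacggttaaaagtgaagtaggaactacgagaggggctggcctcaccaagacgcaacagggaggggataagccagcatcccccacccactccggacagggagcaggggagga
Notch3: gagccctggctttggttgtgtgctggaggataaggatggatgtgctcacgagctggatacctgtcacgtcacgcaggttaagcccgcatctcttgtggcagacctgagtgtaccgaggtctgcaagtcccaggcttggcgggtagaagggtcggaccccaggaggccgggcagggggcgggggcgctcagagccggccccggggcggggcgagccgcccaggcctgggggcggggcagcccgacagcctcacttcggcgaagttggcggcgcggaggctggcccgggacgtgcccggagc
Itm2a: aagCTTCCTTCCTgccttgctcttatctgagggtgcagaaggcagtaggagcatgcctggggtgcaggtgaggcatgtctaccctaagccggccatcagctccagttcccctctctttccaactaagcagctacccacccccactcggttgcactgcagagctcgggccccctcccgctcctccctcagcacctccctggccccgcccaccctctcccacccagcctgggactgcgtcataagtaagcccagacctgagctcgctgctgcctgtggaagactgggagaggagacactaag
Emcn: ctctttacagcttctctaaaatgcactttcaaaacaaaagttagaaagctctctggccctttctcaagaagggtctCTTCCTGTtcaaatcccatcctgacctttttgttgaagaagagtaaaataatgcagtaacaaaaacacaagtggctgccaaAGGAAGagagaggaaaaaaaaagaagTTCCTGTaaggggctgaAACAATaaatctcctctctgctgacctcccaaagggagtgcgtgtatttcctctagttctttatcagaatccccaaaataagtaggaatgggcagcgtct
Slco1a4: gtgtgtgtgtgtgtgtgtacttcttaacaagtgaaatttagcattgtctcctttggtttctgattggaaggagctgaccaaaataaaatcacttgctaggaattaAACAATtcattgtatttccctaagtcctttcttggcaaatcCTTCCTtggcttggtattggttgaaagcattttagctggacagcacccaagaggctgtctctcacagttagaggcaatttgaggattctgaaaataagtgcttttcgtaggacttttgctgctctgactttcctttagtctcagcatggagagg
The motifs, searched on both strands, were AGGAAG and CCGGAA (Ets), AACAAT and ACAATAG (Sox), TGTTTAC (Fox) and ACAGGAA (paired Fox and Ets). ACAGGAA can share letters with AGGAAG, and AACAAT with ACAATAG. RefSeq gave 33 windows for 25 of the 34 members. AGGAAG was in 17 of these 33 windows (51.5%), and in 35.4% of all 32851 windows of that length. CCGGAA was in 2 member windows (6.06%, against 14.9% of all windows) and ACAGGAA in 6 (18.2%, against 8.67%). AACAAT was in 4 member windows (12.1%, against 10.7% of all), ACAATAG in 1 (3.03%, against 2.37%) and TGTTTAC in 1 (3.03%, against 3.65%). The Notch3 window held none of these letter strings, and the Emcn window held 5 matches.

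Libraries held 23260155 to 24006391 recovered reads in KO striatum, 22990233 to 25697792 in WT striatum, 28114119 to 30276815 in KO cortex and 26791109 to 29342263 in WT cortex. Slc1a4 itself averaged 270.8 ± 99.3 normalized counts in KO striatum (SD, n = 3), against 1533 ± 217 in WT striatum (n = 4), and 264.8 ± 28.7 in KO cortex against 1624 ± 127 in WT cortex (n = 4 each). Striatal neuron markers (12 genes) summed to 53735 to 119990 in KO striatum, 105979 to 233867 in WT striatum, 20960 to 25437 in KO cortex and 22065 to 34738 in WT cortex. Replicate 4 of KO striatum had the lowest striatal neuron sum of the striatum libraries. That library and replicate 5 of WT striatum also stood apart in choroid plexus transcripts, with sums of 96113 and 154429 over 18 markers, against 2129 to 7412 in the other 5 striatum libraries. Choroid plexus sums were 1661 to 6910 in KO cortex and 737 to 2254 in WT cortex, and only Cox8b of the 18 markers was at 0 in any library.

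Every vascular gene of the set was readily detected, with values between 69.2 normalized counts for Foxq1 in replicate 8 of WT cortex and 4814 for Slc2a1 in replicate 8 of WT striatum. Levels were divided by exon length, with all annotated exons of a gene merged. This length can exceed that of the longest transcript, as for Ly6c1 (1677 against 844 bases), and the order can depend on it. By this measure Slc2a1 (GLUT1, the glucose transporter of the barrier) had the highest level over the 15 libraries, at 758 normalized counts per kb. Rgs5 (a regulator of G protein signalling found in pericytes) had 723 per kb. Itm2a, an integral membrane protein enriched in brain endothelium, followed at 682 per kb and Vtn, the matrix protein vitronectin made by brain pericytes, at 637 per kb. Cldn5, the main claudin of the barrier's tight junctions, stood at 463 per kb and Ocln, the junction protein occludin, at 68.3 per kb. Among the vessel receptors Flt1 (VEGF receptor 1) had 180.9 per kb, above Kdr (VEGF receptor 2) at 49.4 per kb. The transcription factors ran from 103.7 per kb for Sox18 to 21.7 per kb for Foxq1, the lowest member. Within a group, the coefficient of variation of a member had a median of 14.9% in KO striatum, 15.5% in WT striatum, 10.2% in KO cortex and 17.1% in WT cortex.

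**Figure D1:**
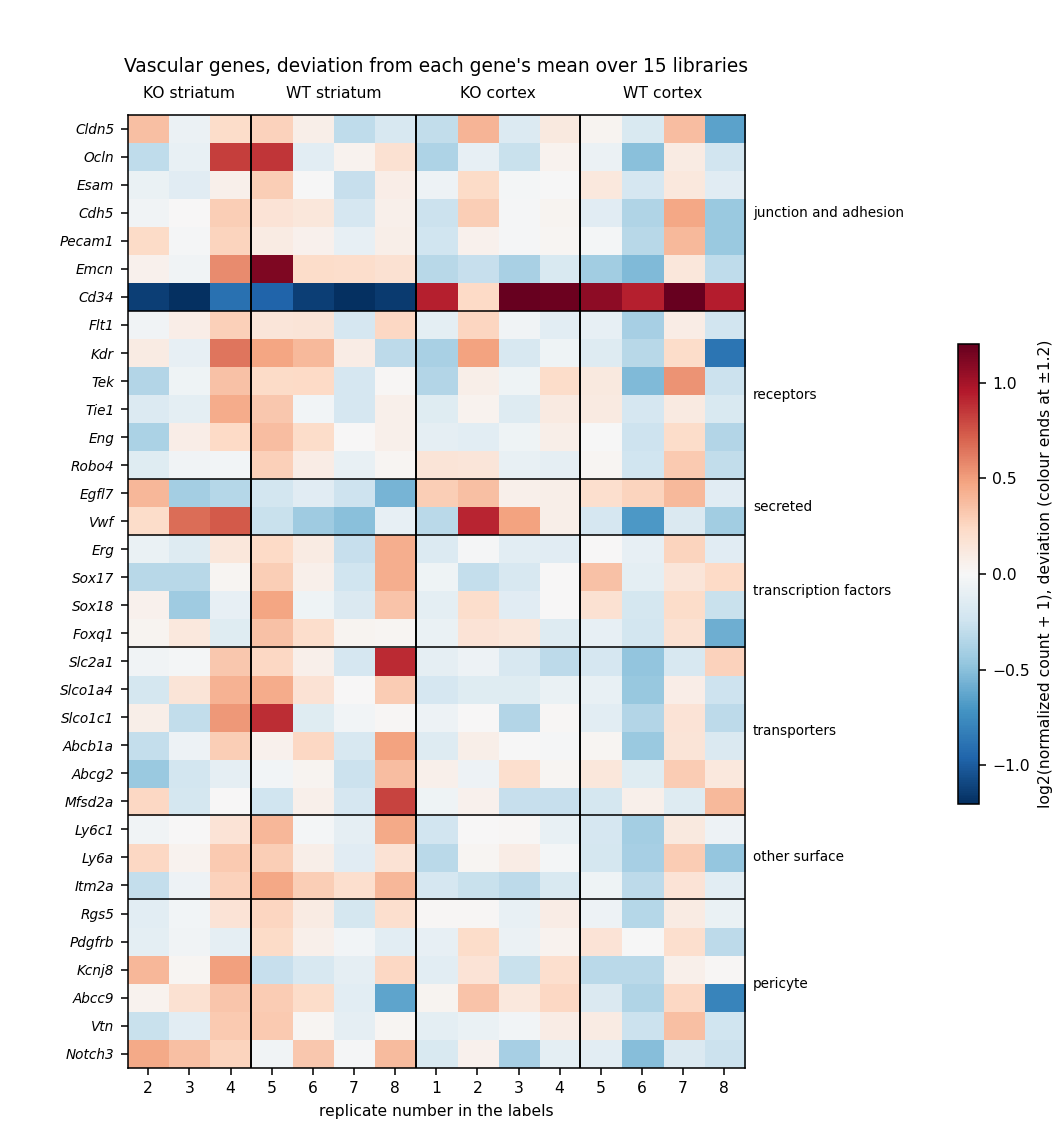
Each row is a member, grouped by role, and each column a library; colour gives the deviation of log2(normalized count + 1) from the gene's mean over 15 libraries, with the scale ending at ±1.2. Cd34 is low in all 7 striatum libraries and high in all 8 cortex libraries, while whole columns, such as replicate 7 of WT cortex, are shifted for most other members.

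Members tended to be high or low together in single libraries. In KO striatum, replicate 4 had the highest value of the group for 27 of 34 members. In WT striatum, replicate 5 was highest for 21 members and replicate 7 lowest for 23. In KO cortex, replicate 2 was highest for 17 and replicate 1 lowest for 16. In WT cortex, replicate 7 was highest for 28 members, and replicates 6 and 8 were lowest for 20 and 13. Such counts were not taken over all genes. Replicate 7 also had the highest WT cortex sums of astrocyte (199860), microglia (15979), pan-neuronal (254331), cortical neuron (111819) and fibroblast (7335) markers. It had the lowest of striatal neuron (22065) and choroid plexus (737) markers. In the same order, the next highest WT cortex sums were 163454, 14675, 248267, 110178 and 5072. The pan-neuronal and cortical neuron sums were thus only slightly higher in replicate 7. The 34 members summed to 30429 there, against 22068 to 26416 in the other WT cortex libraries. A list of 21 other junction and transport genes had its lowest WT cortex sum there, 55994.5. High values in that library were thus not confined to vascular genes, but differed in size between lists. These are bulk tissue samples, in which fewer vascular cells and less RNA per vascular cell cannot be told apart. The mean log2 deviation of the 28 endothelial genes from their means over all libraries ran from -0.10 to 0.21 in KO striatum, -0.17 to 0.25 in WT striatum, -0.12 to 0.10 in KO cortex and -0.25 to 0.23 in WT cortex. For the 6 pericyte genes the ranges were 0.06 to 0.25 in KO striatum, -0.10 to 0.13 in WT striatum, -0.12 to 0.12 in KO cortex and -0.30 to 0.13 in WT cortex.

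**Figure D2:**
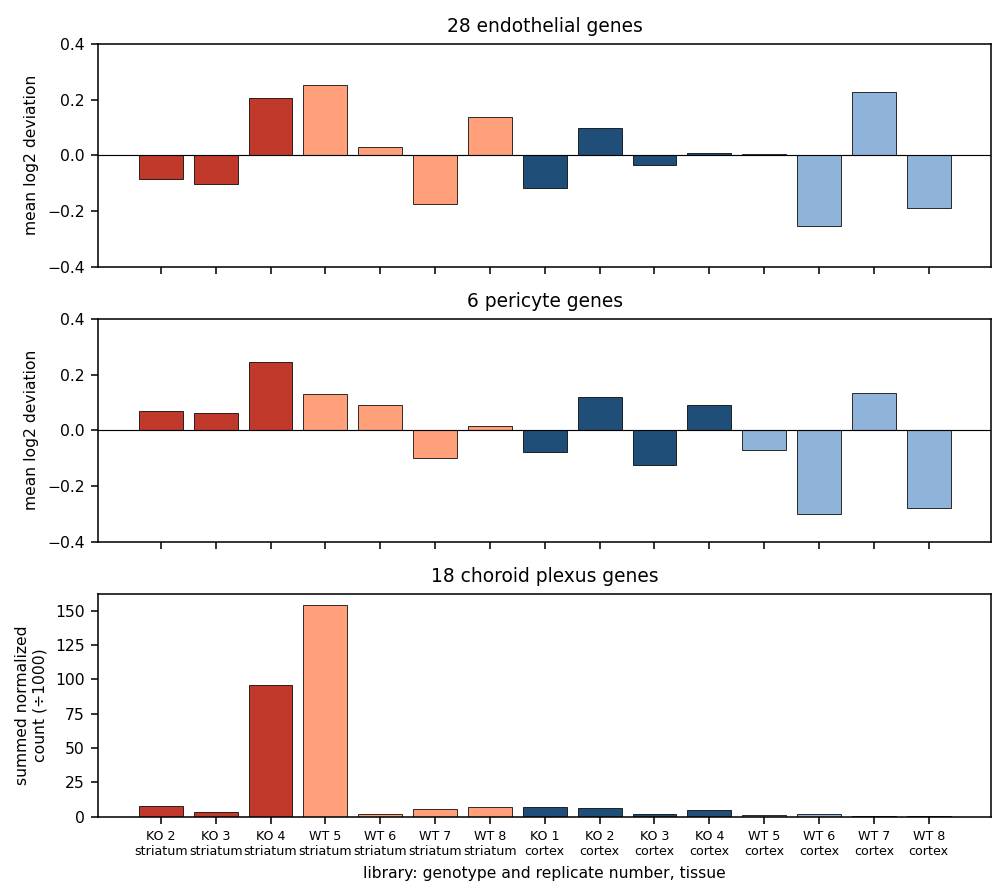
Bars give, for each library, the mean log2 deviation of 28 endothelial genes (top) and 6 pericyte genes (middle) from their means over 15 libraries, and the summed normalized count of 18 choroid plexus genes divided by 1000 (bottom). The endothelial mean is highest in replicate 5 of WT striatum (0.25) and lowest in replicate 6 of WT cortex (-0.25), and the choroid plexus sum is high in replicate 4 of KO striatum and replicate 5 of WT striatum.

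Some members lay at the same end of their group in both libraries numbered 8, and how often chance gives this was not tested. Both replicates numbered 8 of the WT groups had the highest Slc2a1 of their group, with 4814 normalized counts in striatum and 3139 in cortex. The same libraries had the highest Mfsd2a (a lipid transporter that keeps transcytosis low), at 887 in striatum and 661 in cortex. They also had the lowest Kdr of their group, at 345.5 in striatum and 234.6 in cortex, and the lowest Abcc9 (SUR2, the regulatory subunit of the pericyte ATP-sensitive potassium channel), at 268 in striatum and 239 in cortex. Egfl7, Pdgfrb and Foxq1 were lowest there too, at 240.6, 600.9 and 106.0 in striatum and 321.8, 527.4 and 69.2 in cortex.

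The loss of ASCT1 was examined first in striatum. By limma with Benjamini-Hochberg adjustment over 17030 genes, 0 of the 34 members passed an adjusted p of 0.05 between KO striatum and WT striatum, and 0.0763% of all genes did. Count tools on the recovered reads gave 0 members with edgeR, 0 with voom and 1 with DESeq2, and 4 members had an unadjusted limma p below 0.05. The 0.0763% is the limma share, and no share over all genes is given for the count tools. Log2 fold changes ran from -0.36 to 0.87, with 13 above 0 and 21 below, a median of -0.09 and a median of 0.01 over all genes tested. The 95% interval lay within 2-fold in both directions for 33 of 34 members. All 6 transporters and all 4 transcription factors had fold changes below 0, with medians of -0.14 for the transporters and -0.23 for the factors, and none of these 10 passed. Striatal neuron markers had fold changes below 0 for 12 of 12 genes, with 0 called, and cortical neuron markers above 0 for 9 of 12, with 1 called, and their part in the members' fold changes was not tested.

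Vwf, the von Willebrand factor that endothelium stores and secretes for platelet adhesion, had the smallest p. Its normalized counts were 694, 947 and 995 in KO striatum, against 494, 444.0, 422 and 555 in WT striatum. All 3 KO libraries lay above all 4 WT libraries, the only member with groups that did not overlap, where 8.07% of all genes had such groups. With a log2 fold change of 0.87 (SE 0.23) and a limma adjusted p of 0.169, Vwf missed the threshold. Its adjusted p ranged from 0.0236 with DESeq2, the only one of 29 alternatives to pass, to 0.679 with the striatum libraries alone. Vwf in cortex had 477, 1122, 835 and 626 normalized counts in KO mice, against 517, 369, 527 and 445 in WT mice. Replicate 1 of KO cortex lay within the WT range and the other 3 KO libraries above it. In cortex the log2 fold change was 0.66 (SE 0.21), with a limma adjusted p of 0.9998. Vwf is at chr6:125546774-125686679 on the plus strand of GRCm38 (GENCODE M21).

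Itm2a had 956, 1123 and 1421 normalized counts in KO striatum, against 1617, 1433, 1346 and 1546 in WT striatum. Replicate 4 of KO striatum lay within the WT range and the other 2 KO libraries below it. Its log2 fold change was -0.36 (SE 0.12), with a limma adjusted p of 0.217. Without replicate 4 of KO striatum it was -0.52 with a limma adjusted p of 0.0302, the only one of 29 alternatives to pass. Without that library and replicate 5 of WT striatum it was -0.47 with a limma adjusted p of 0.0501. Kcnj8, the Kir6.1 pore of the pericyte ATP-sensitive potassium channel, had 117, 89.7 and 125 normalized counts in KO striatum, against 72.8, 77.2, 81.9 and 105 in WT striatum. Of the KO libraries, 2 lay above the WT range and 1 within it, and the log2 fold change was 0.39 (SE 0.18, limma adjusted p 0.317).

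**Figure D3:**
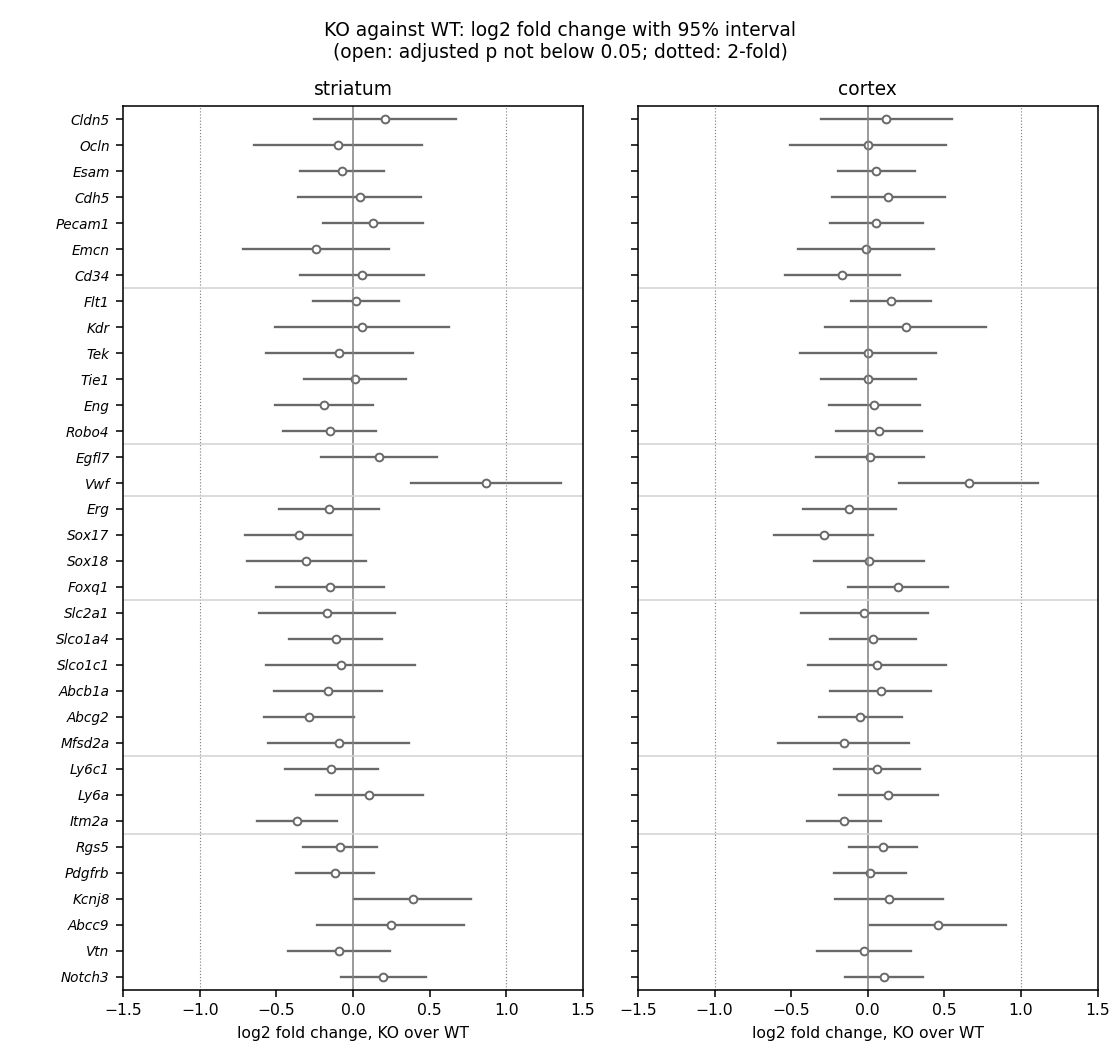
Points give the log2 fold change of each member, KO over WT, in striatum (left) and cortex (right), with bars for the 95% interval and dotted lines at 2-fold. No point is filled, since no member passed an adjusted p of 0.05, and only the interval of Vwf reaches past 2-fold in either tissue.

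In cortex, too, no vascular gene was called between the genotypes. By limma, 0 of 34 members passed between KO cortex and WT cortex, with 0.00587% of all genes called, and edgeR, voom and DESeq2 also called 0. An unadjusted p below 0.05 was reached by 2 members, Vwf and Abcc9. Fold changes ran from -0.29 to 0.66 on the log2 scale, 25 above 0 and 9 below, with a median of 0.05 (0.00 over all genes tested). That median was -0.01 without replicate 6 of WT cortex and -0.01 without replicate 8 of WT cortex, the libraries with the lowest value of the group for 20 and 13 members. Fibroblast markers had fold changes above 0 for 21 of 22 genes in this comparison and choroid plexus markers for 17 of 17, with 0 of either list called, and their part in the median was not tested. Intervals lay within 2-fold for 33 of 34, and no member had groups that did not overlap, against 4.02% of all genes.

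Abcc9 had 425, 526, 453 and 494 normalized counts in KO cortex, against 367, 322, 494 and 239 in WT cortex. Replicate 7 of WT cortex lay among the KO libraries and the other 3 WT libraries below them. Abcc9 had a log2 fold change of 0.46 (SE 0.21, limma adjusted p 0.9998). Sox17, a transcription factor of arterial endothelium, had 148, 126, 134 and 154 in KO cortex, against 197, 142, 170 and 182 in WT cortex. These ranges overlapped through replicate 6 of WT cortex, and the log2 fold change was -0.29 (SE 0.15, limma adjusted p 0.9998).

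Among the genes of the barrier itself, the intervals bound the size of a KO effect. Cldn5 averaged 729 ± 107 normalized counts in KO striatum (n = 3), against 634 ± 116 in WT striatum (n = 4), a log2 difference of 0.21 with a 95% interval of -0.25 to 0.67. In cortex it averaged 661 ± 146 in KO mice and 617 ± 175 in WT mice (SD, n = 4 each), a difference of 0.12 with an interval of -0.31 to 0.55. Slc2a1 averaged 2759 ± 406 in KO striatum, against 3212 ± 1119 in WT striatum, and 2307 ± 173 in KO cortex against 2380 ± 539 in WT cortex. Its log2 differences were -0.17 (interval -0.62 to 0.28) in striatum and -0.02 (interval -0.43 to 0.39) in cortex. Abcb1a, the P-glycoprotein efflux pump, differed by -0.17 in striatum and 0.08 in cortex, and Abcg2, the efflux pump BCRP, by -0.29 in striatum and -0.05 in cortex. Pdgfrb, the receptor through which endothelium recruits pericytes, differed by -0.12 in striatum and 0.01 in cortex. None of these passed the test.

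The difference between the KO effects of the tissues was tested as an interaction. By limma 0 of 34 members passed, with 0.00587% of all genes called, 0 at an unadjusted p below 0.05, and 0 by edgeR, voom or DESeq2. The KO effect in striatum minus that in cortex was below 0 for 25 members and above 0 for 9, with a median of -0.13 (0.00 over all genes tested). The smallest p values belonged to Foxq1, a forkhead factor of brain endothelium (-0.35, SE 0.23), Abcg2 (-0.24, SE 0.19) and Sox18, a vascular Sox factor (-0.31, SE 0.25), with limma adjusted p values of 0.962, 0.969 and 0.969. Foxq1 had 106, 114 and 94.2 normalized counts in KO striatum, 133, 121, 107 and 106 in WT striatum, 98.6, 117, 115 and 93.3 in KO cortex, and 97.0, 89.4, 118 and 69.2 in WT cortex. The ranges overlapped within each tissue. Fold changes had the same sign in both tissues for 20 of 34 members, and for 61.5% of all genes tested.

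Striatum and cortex differed for few vascular genes, although they differed for many genes overall. In WT mice 6 of 34 members (17.6%) passed the limma test, where 50.5% of all genes tested did. Itm2a, Notch3, Emcn and Slco1a4 were higher in striatum (24.9% of all genes were), and Cd34 and Egfl7 lower (25.7% of all genes). In KO mice 2 members (5.88%) passed, where 37.9% of all genes did: Notch3 was higher in striatum (18.4% of all genes) and Cd34 lower (19.5% of all genes). In WT mice 30 fold changes were above 0 and 4 below, with a median of 0.16 (0.01 over all genes). In KO mice 24 were above 0 and 10 below, with a median of 0.09 (0.00 over all genes), which was -0.02 without replicate 4 of KO striatum.

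These counts moved with single libraries. In WT mice the count was 12 without replicate 7 of WT cortex, the library in which most members were high, and 10 without replicate 7 of WT striatum. Members added in the first case were Cdh5, Pecam1, Flt1, Eng, Foxq1, Ly6c1 and Ly6a, all higher in striatum, while Egfl7 was lost. In KO mice the count was 5 without replicate 2 of KO striatum, with Egfl7, Slco1a4 and Itm2a added. The share of all genes called in these fits is not given here, so the counts show no gain particular to vascular genes.

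**Figure D4:**
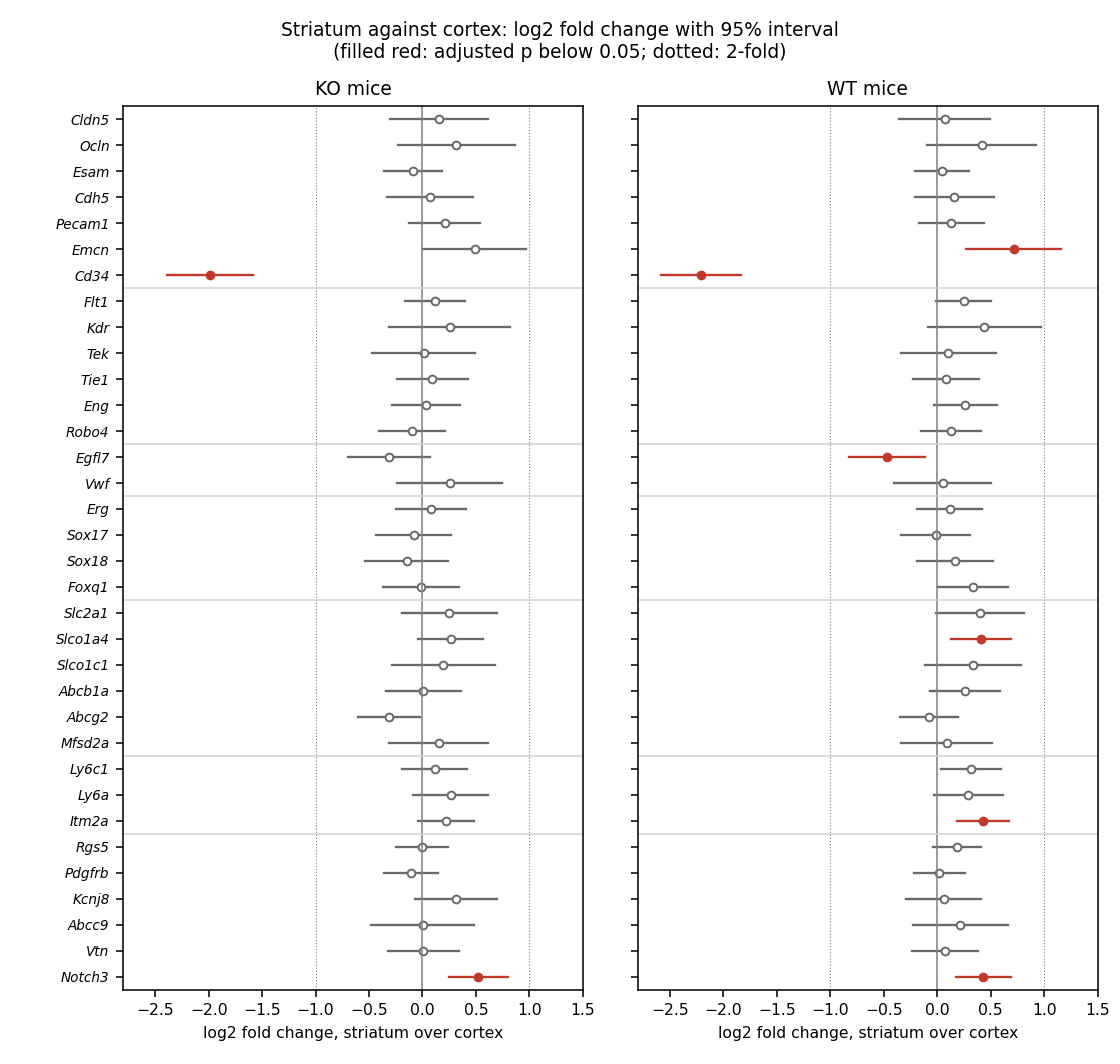
Points give the log2 fold change of each member, striatum over cortex, in KO mice (left) and WT mice (right), with bars for the 95% interval; filled red points passed an adjusted p of 0.05 and dotted lines mark 2-fold. Cd34 stands at -1.99 in KO mice and -2.21 in WT mice, apart from all other members, which lie between -0.47 and 0.72.

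Cd34, a sialomucin of vascular endothelium that is also made by blood progenitors and some fibroblasts, had by far the largest tissue difference of the set. It had 619, 575 and 727 normalized counts in KO striatum, against 2585, 1603, 3217 and 3067 in KO cortex. In WT mice it had 695, 621, 531 and 609 in striatum, against 2855, 2584, 3365 and 2614 in cortex. Every striatum library lay below every cortex library, and replicate 2 of KO cortex was the lowest of the cortex libraries. The log2 fold change was -1.99 (SE 0.19, limma adjusted p 2.28e-06) in KO mice and -2.21 (SE 0.18, limma adjusted p 1.77e-07) in WT mice. Cd34 passed in all 29 alternatives in both genotypes.

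Other endothelial adhesion genes did not share this size. Pecam1 (CD31), Cdh5 (VE-cadherin) and Esam, an adhesion molecule of endothelial junctions, had log2 fold changes of 0.21, 0.07 and -0.09 in KO mice and of 0.13, 0.16 and 0.04 in WT mice, none of which passed. Fibroblast markers (22 genes) were called lower in striatum for 9 genes in KO mice and 10 in WT mice, and higher for 1 in each. Of all genes, 19.5% in KO mice and 25.7% in WT mice were called lower, and 18.4% and 24.9% higher. Their sums were 4281 to 10230 in KO striatum, 4311 to 9927 in WT striatum, 5182 to 7850 in KO cortex and 3955 to 7335 in WT cortex. Replicate 2 of KO cortex, lowest of the cortex libraries in Cd34, had the highest fibroblast sum of the cortex libraries. The other way, replicate 7 of WT cortex, highest of the cortex libraries in Cd34, had the highest fibroblast sum of WT cortex. Cortical neuron markers (12 genes) summed to 24558 to 36682 in KO striatum, 24421 to 36421 in WT striatum, 102356 to 104683 in KO cortex and 102985 to 111819 in WT cortex. The part of either cell type in the Cd34 difference was not tested. Gm16897, which overlaps Cd34 on the opposite strand, averaged 7.91 to 12.9 normalized counts in the 4 groups. Cd34 is at chr1:194938819-194961279 on the plus strand of GRCm38.

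Notch3, the Notch receptor of pericytes and smooth muscle, was the pericyte gene that differed. It had 683, 637 and 598.1 normalized counts in KO striatum, against 439, 516, 378 and 458 in KO cortex. In WT mice it had 482, 623, 491 and 650 in striatum, against 456, 349, 441 and 415 in cortex. All striatum libraries lay above all cortex libraries of the same genotype. The log2 fold change was 0.52 (SE 0.13, limma adjusted p 0.00576) in KO mice and 0.43 (SE 0.12, limma adjusted p 0.00832) in WT mice. Without replicate 4 of KO striatum and replicate 5 of WT striatum, the libraries rich in choroid plexus transcripts, it was 0.57 in KO mice and 0.50 in WT mice, and passed in both.

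Notch3, at chr17:32120820-32166852 on the minus strand of GRCm38, overlaps the antisense gene Gm17276. Gm17276 averaged 80.5 ± 22 normalized counts in KO striatum, 78.5 ± 15.2 in WT striatum, 32.7 ± 2.70 in KO cortex and 38.9 ± 5.72 in WT cortex. The counting is not stated to use strand, so whether reads of the 2 genes were kept apart is not known. The other pericyte genes, Rgs5, Pdgfrb, Kcnj8, Abcc9 and Vtn, had log2 fold changes between -0.11 and 0.31 in KO mice and between 0.02 and 0.22 in WT mice, and none passed.

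Itm2a had 1617, 1433, 1346 and 1546 normalized counts in WT striatum, against 1125, 938, 1306 and 1071 in WT cortex. All 4 striatum libraries lay above all 4 cortex libraries, with a log2 fold change of 0.43 (SE 0.11, limma adjusted p 0.00593). In KO mice it had 956, 1123 and 1421 in striatum, against 1015, 974, 942 and 1032 in cortex, and these ranges overlapped (0.22, SE 0.12, limma adjusted p 0.179). Passing in WT mice and not in KO mice is no test of a difference between genotypes, and the interaction gave an adjusted p of 0.969.

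Emcn, the sialomucin endomucin of capillary and venous endothelium, had 364, 194, 193 and 190 normalized counts in WT striatum, against 124, 115, 183 and 134 in WT cortex. The groups did not overlap, and replicate 5 of WT striatum, rich in choroid plexus transcripts, was well above the rest. This was a log2 fold change of 0.72 (SE 0.21, limma adjusted p 0.0101), or 0.49 without the choroid-rich libraries (limma adjusted p 0.00846). In KO mice Emcn had 173, 162 and 248 in striatum, against 132, 138, 127 and 147 in cortex. All striatum libraries lay above all cortex libraries there too, with a log2 fold change of 0.49 (SE 0.22) that missed the threshold (limma adjusted p 0.101).

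Slco1a4, an organic anion transporter of the barrier, had 2009, 1662, 1473 and 1819 normalized counts in WT striatum, against 1386, 1077, 1557 and 1237 in WT cortex. The ranges overlapped between replicate 7 of WT striatum and replicate 7 of WT cortex. The log2 fold change was 0.41 (SE 0.13, limma adjusted p 0.0180), and it missed the threshold without replicate 5 of WT striatum (adjusted p 0.0575) or without replicate 6 of WT cortex (adjusted p 0.0668). Its close relatives Slco1a5 and Slco1a6 had 0 to 58.2 and 0 to 7.92 normalized counts.

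Egfl7, a matrix protein secreted by endothelium, had 304, 321, 298 and 241 normalized counts in WT striatum, against 408, 425, 464 and 322 in WT cortex. All striatum libraries lay below all cortex libraries, replicate 6 of WT striatum only just. The log2 fold change was -0.47 (SE 0.17, limma adjusted p 0.0277). It missed the threshold without replicate 5, 6 or 7 of WT cortex or replicate 8 of WT striatum, with adjusted p values of 0.0565, 0.0665, 0.0803 and 0.0821. In KO mice Egfl7 had 465, 266 and 278 in striatum, against 435, 453, 370 and 370 in cortex. Replicate 2 of KO striatum was above every cortex library and the others below them, and the log2 fold change of -0.32 (SE 0.18) did not pass (limma adjusted p 0.182). Without that replicate it was -0.57 with an adjusted p of 0.00882. Agpat2, which overlaps Egfl7 on the opposite strand, averaged 19.4 to 39.8 normalized counts in the 4 groups.

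**Figure D5:**
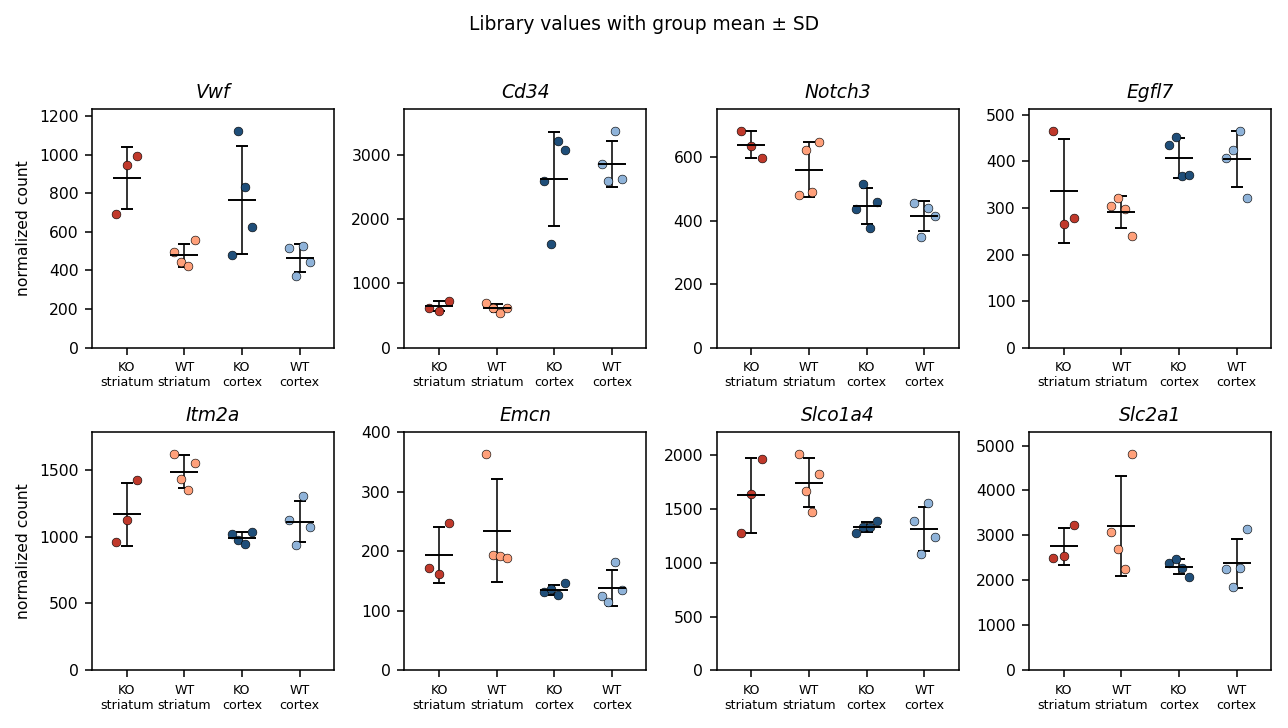
Points are the normalized counts of single libraries for 8 members, with the group mean and SD as bars, in the order KO striatum, WT striatum, KO cortex, WT cortex. Cd34 averages 640 and 614 in KO and WT striatum against 2618 and 2855 in KO and WT cortex, and Vwf is higher in all 3 KO striatum libraries than in all 4 WT striatum libraries.

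Groups of the set that did not overlap between tissues numbered 5 of 34 in KO mice, where 41.5% of all genes had such groups, and 5 of 34 in WT mice, where 47.3% did. In KO mice these were Emcn, Slc2a1 and Notch3 above and Cd34 and Abcg2 below. Slc2a1 had 2509, 2539 and 3227 normalized counts in KO striatum, against 2395, 2481, 2271 and 2082 in KO cortex, and Abcg2 had 337, 394 and 428 in KO striatum, against 481, 441, 528 and 467 in KO cortex. Both missed the limma threshold, with log2 fold changes of 0.25 (SE 0.21) and -0.31 (SE 0.14). Signs matched between the genotypes for 28 of 34 members and for 86.5% of all genes tested.

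Members of the receptor and transcription factor groups gave no call between tissues in either genotype. The receptors Flt1, Kdr, Tek and Tie1 (the angiopoietin receptor and its partner), Eng (endoglin, a co-receptor for TGF-beta family ligands) and Robo4 (a guidance receptor of endothelium) had log2 fold changes from -0.10 to 0.25 in KO mice and from 0.08 to 0.44 in WT mice. The factors Erg, Sox17, Sox18 and Foxq1 ran from -0.15 to 0.08 in KO mice and from -0.02 to 0.34 in WT mice. Ly6c1 and Ly6a, surface proteins of mouse brain endothelium, stood at 0.12 and 0.26 in KO mice and at 0.32 and 0.29 in WT mice. The relative Ly6c2 had 4.06 to 24.0 normalized counts in the 15 libraries. Abcb1b, the relative of Abcb1a, had 71.7 to 117. Slco1c1, the thyroid hormone transporter of the barrier and of choroid plexus, stood at 0.20 in KO mice and 0.34 in WT mice. In the libraries rich in choroid plexus transcripts it had 2335 normalized counts (KO striatum, replicate 4) and 3014 (WT striatum, replicate 5), against 1331 to 1716 in the other striatum libraries. Without them its log2 fold change was -0.01 in KO mice and 0.10 in WT mice.

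Other genes of vessels were read from 7 lists, where calls between KO and WT were also few. KO against WT gave 0 calls in every list in cortex, and in striatum 1 call, Lrg1, among 6 tested genes of leaky or activated vessels. Of all genes tested, 0.00587% were called in cortex and 0.0763% in striatum. Lrg1, a secreted glycoprotein made by activated endothelium and other cells, had 26.3, 58.4 and 52.9 normalized counts in KO striatum, against 2.27, 5.08, 11.2 and 3.18 in WT striatum. Every KO library was above every WT library, where 8.07% of all genes had groups that did not overlap. The log2 fold change was 2.97 (SE 0.47, limma adjusted p 0.0284). In cortex it had 40.5, 53.3, 132 and 56.9 in KO mice, against 49.0, 30.4, 66.7 and 37.1 in WT mice, and these ranges overlapped. Lrg1 was also lower in striatum than in cortex in WT mice (-2.99, SE 0.44, limma adjusted p 5.81e-05). Striatal neuron sums were lower in KO striatum than in WT striatum on average (97787 against 174017), and the part of tissue makeup in the Lrg1 difference was not tested.

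The genes of smallest p in the other lists are given as values, since none passed. Nrp1, a co-receptor for VEGF, had 1008, 1205 and 1470 normalized counts in KO striatum, against 856, 758, 749 and 818 in WT striatum (log2 fold change 0.61, SE 0.15, limma adjusted p 0.157). All KO striatum libraries were above all WT striatum libraries. In cortex it had 1080, 1700, 1087 and 1163 in KO mice, against 946, 960, 828 and 1106 in WT mice, with overlap (0.37, SE 0.14, limma adjusted p 0.9998). Cd93, an endothelial lectin-like receptor, had 592, 272 and 363 in KO striatum, against 222, 250, 217 and 181 in WT striatum (0.84, SE 0.29, limma adjusted p 0.217). Col4a1, a collagen chain of the vascular basement membrane, had 1534, 1010 and 939 in KO striatum, against 719, 772, 670 and 777 in WT striatum (0.63, SE 0.17, limma adjusted p 0.173). For both genes every KO striatum library was above every WT striatum library. Of all genes tested, 8.07% had groups that did not overlap in striatum. These genes were picked by smallest p in their lists, so their separation adds no support. Ch25h, an enzyme that makes 25-hydroxycholesterol, had 9.69, 21.5, 46.5 and 15.9 in KO cortex, against 9.42, 6.66, 9.14 and 3.01 in WT cortex. Its groups did not overlap, where 4.02% of all genes had such groups in cortex. The log2 fold change of Ch25h was 1.47 (SE 0.44, limma adjusted p 0.9998).

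Between tissues the vascular lists held more calls, except the list of leaky or activated vessels in KO mice. Of 18 other pericyte and smooth muscle genes, 2 were higher and 1 lower in striatum in KO mice, and 5 were higher and 0 lower in WT mice. Mcam (CD146) rose in striatum by 0.74 (SE 0.16, limma adjusted p 0.00198) in KO mice and 0.83 (SE 0.15, limma adjusted p 2.86e-04) in WT mice. Of 22 other pan-endothelial genes, 0 were higher and 3 lower in KO mice, and 3 were higher and 3 lower in WT mice. Car4, a membrane carbonic anhydrase of capillaries, had 219, 191 and 686 normalized counts in KO striatum, against 790, 580, 835 and 860 in KO cortex, and its log2 fold change was -1.30 (SE 0.33, limma adjusted p 0.00679). In WT mice it had 323, 335, 295 and 536 in striatum, against 810, 822, 1010 and 848 in cortex (-1.26, SE 0.31, limma adjusted p 0.00354). All striatum libraries except replicate 4 of KO striatum lay below every cortex library.

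Of 21 other junction and transport genes, 6 were higher and 1 lower in striatum in KO mice, and 6 were higher and 2 lower in WT mice. Cldn12, a further claudin, rose by 0.39 in KO mice and 0.47 in WT mice, and Tfrc, the transferrin receptor, fell by 0.43 in KO mice and 0.52 in WT mice. Of 25 angiogenic and arteriovenous genes, 6 were higher and 2 lower in KO mice, and 7 were higher and 3 lower in WT mice. Nr2f2, a factor of venous endothelium that neurons also use, had the largest change among those named, at 2.24 in KO mice and 2.39 in WT mice. Of 17 genes of Wnt and Norrin signalling, 5 were higher and 0 lower in KO mice, and 8 were higher and 2 lower in WT mice. Tspan12, a co-activator of the Norrin receptor, rose by 0.75 in KO mice and 0.99 in WT mice. Of 15 basement membrane genes, 2 were higher and 3 lower in KO mice, and 5 were higher and 4 lower in WT mice. Sparc, a matrix protein of vessels and astrocytes, rose by 2.04 in KO mice and 1.81 in WT mice. Of 6 genes of leaky or activated vessels, 0 were called in KO mice, and 1 was higher and 2 lower in WT mice. In WT mice Vcam1, a leukocyte adhesion molecule, rose by 0.52, and Plvap, the diaphragm protein of fenestrated endothelium, fell by 0.48. Many of these genes are made by neurons or glia as well, and the share of all genes called was 37.9% in KO mice and 50.5% in WT mice.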

How the data were processed

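The deposited values are a normalized signal for each gene in each library: read counts that the authors scaled by a library factor. Per the submitters' processing notes, the tools named are TopHat2 2.1.1 and HTSeq 0.6.0, beside DESeq2 1.12.4, cutadapt 1.1, FastQC 0.11.5 and the build GRCm38; their roles, the annotation and the strand setting are not given in the sources used here. All values (100%) lay within 0.001 of whole reads after rescaling (largest deviation 5.34e-05), so reads were recovered for the count tools. Positions, exon lengths and overlaps came from GENCODE M21.

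Group means were compared in R 4.3.3 by limma 3.58.1, on log2(normalized count + 1) with a variance trend, 4 group means and all 15 libraries (11 residual degrees of freedom), adjusted by Benjamini-Hochberg over 17030 genes; a gene was called at an adjusted p below 0.05. Fold changes are on that log2 scale and understate those of low genes. The test was checked on simulated data. Alternatives were pseudocounts of 0.5 and 5, a filter at 50 and none, TMM and median-gene scaling, edgeR 4.0.16, DESeq2 1.42.0 and voom on recovered reads, sample weights, robust variances, length and GC trends, single tissues or genotypes, the replicate block, the choroid-rich libraries left out, and each library left out.

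Members and lists were chosen with earlier results of these data known. Called members are given in full, or the 3 of smallest p where none was called; of other lists, up to 3 called genes or the 1 of smallest p. Some of these are given only by counts. Figures used Python 3.11.15 and matplotlib 3.10.9.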

Additional observations from a re-analysis of the deposited data

Results flagged for a closer look

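Of 102 groups of 4 libraries examined, 3 held a library far from the others, all on the high side; chance gives about 1 in 20. Esam in replicate 2 of KO cortex had 407 normalized counts, against 332 to 344 in the other 3 libraries. Emcn in replicate 5 of WT striatum had 364, against 190 to 194 in the others. Slco1c1 in the same library had 3014, against 1473 to 1647. Replicate 5 of WT striatum also had the highest choroid plexus sum, 154429 normalized counts over 18 markers, and the part of that tissue in these values was not tested.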

How the results depend on the processing

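The count of members called between KO and WT was 0 in cortex in all 29 alternatives and 0 for the interaction in all 28. In striatum it was 0 in 27 of 29 and 1 with DESeq2 (Vwf), and 0 to 1 with single libraries left out (Itm2a without replicate 4 of KO striatum); the cause was not tested. Between tissues it was 6 to 7 in WT mice and 2 to 3 in KO mice under all settings other than leaving out each library in turn. Some of these settings also used fewer libraries: the fits on a single genotype, the replicate block (without replicate 1 of KO cortex) and the fit without the choroid-rich libraries. With each library left out in turn it was 4 to 12 in WT mice, with 12 without replicate 7 of WT cortex and 10 without replicate 7 of WT striatum, and 2 to 5 in KO mice, with 5 without replicate 2 of KO striatum. The share of all genes called under each alternative is not given here. Median log2 fold changes of the set with single libraries left out ran from -0.17 to -0.01 for KO against WT in striatum, -0.01 to 0.14 in cortex, -0.24 to -0.04 for the interaction, 0.10 to 0.29 between tissues in WT mice and -0.02 to 0.15 in KO mice. With the replicate number as a block, 7 members passed between tissues in WT mice (Slc2a1 added), 2 in KO mice and 0 for the interaction. Same-numbered libraries correlated at 0.00 to 0.14 in their deviations, not above 0.1 for every pair, and the labels name no shared animal, so the numbers were not taken as pairs. As a hint from the data towards pairing, 5 of 7 striatum libraries correlated best with the cortex library of their own number. Each was set against the 4 cortex libraries of its genotype, and how often chance gives 5 of 7 was not tested. The main fit treated all libraries as independent.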
